A study of Mus musculus with 46 samples.

Results

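The change between 6 and 24 hr after lipopolysaccharide (LPS) was measured in white matter (WM) repopulating cells, the microglia-like cells that refill the mouse brain after strong depletion and spread through the subventricular zone and white matter tracts. The comparison was set by the sample titles, with 4 libraries labelled AltRepop_24hr against 4 labelled AltRepop_6hr, which are 8 of the 24 libraries of the sorted-cell LPS experiment and 8 of the 46 libraries of the series. All mice were wild-type male C57BL/6 animals of 2 months. The WM repopulating groups received the CSF1R inhibitor PLX3397 in chow for 14 days, then 28 days of recovery on normal chow, and the control groups received vehicle chow (CSF1R is the receptor that microglia need to survive). LPS was given once intraperitoneally at 0.33 mg/kg and cells were collected 6 or 24 hr later. The 0 hr mice got no LPS per the labels, and the figure legend of the study also speaks of saline. The same fit held 4 WM repopulating libraries at 0 hr, 3 control libraries at 0 hr, 5 control libraries at 6 hr and 4 control libraries at 24 hr. CD11b+CD45int cells were sorted by flow cytometry from whole hemispheres, so the gate and not the white matter itself defined the cells, and nothing in the sort separated refilled cells from any microglia that had survived the inhibitor. In the study n counts mice per group, while the labels name separate samples and not the mice behind them. The p-values measure only the spread between these samples.

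Microglia sense LPS through Toll-like receptor 4, whose signal runs through NF-kB to early cytokines and through IRF3 and type I interferon to a later set of interferon-stimulated genes. Feedback inhibitors, decoy receptors and antagonists of interleukin-1 normally limit the first wave. During the response microglia lower the genes of their resting state, such as P2ry12 and Tmem119, and resolution is usually described as the return of both programs toward their starting level.

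Values were FPKM, that is, fragments counted on a gene and scaled to gene length and library size. The smallest steps of the values gave 6207111 to 7801726 counted reads per library at 6 hr and 6416579 to 10379752 at 24 hr, against 5237753 to 10379752 over the 24 libraries, so that 1 read on a gene of 2 kb was worth 0.0482 to 0.0955 FPKM. Correlations of log2(FPKM + 1) between libraries of one time lay between 0.959 and 0.984. The 40 microglial genes of the homeostatic list summed to 31372 to 40603 FPKM at 6 hr and to 37435 to 44626 FPKM at 24 hr, and the 10 neuronal markers to 6.32 to 9.87 and 3.60 to 6.22 FPKM, so the cells carried the markers of the labelled type and few of neurons. Markers of blood and choroid plexus cells did move with time. The 12 monocyte markers summed to 1769 to 4403 FPKM at 6 hr and 223 to 943 at 24 hr, without overlap. The 13 neutrophil markers summed to 504 to 10378 FPKM at 6 hr, where replicate 1 held the highest value, and to 3298 to 7354 at 24 hr, and 3 of 13 were called higher. Their median change was 1.46 on the log2 scale, and 9 were higher at an unadjusted limma p under 0.05. Border-associated macrophage markers had 2 of 11 lower, astrocyte markers 1 of 6 lower, and none of 11 lymphocyte, 4 oligodendrocyte, 4 neuronal and 4 endothelial markers was called by limma at an adjusted p under 0.05 (1, 1, 1 and 2 at an unadjusted p under 0.05). At that unadjusted level the border-associated list had 2 markers higher and 2 lower. For comparison, 8.19% of all tested genes were called higher and 7.50% lower. At 24 hr, replicate 2 stood apart with few transcripts of heat shock and endoplasmic reticulum chaperones. Among the control libraries, 6 hr replicate 2 and 24 hr replicate 4 lay farthest from their groups. In bulk samples fewer cells of a type and less RNA per cell cannot be told apart.

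**Figure D1:**
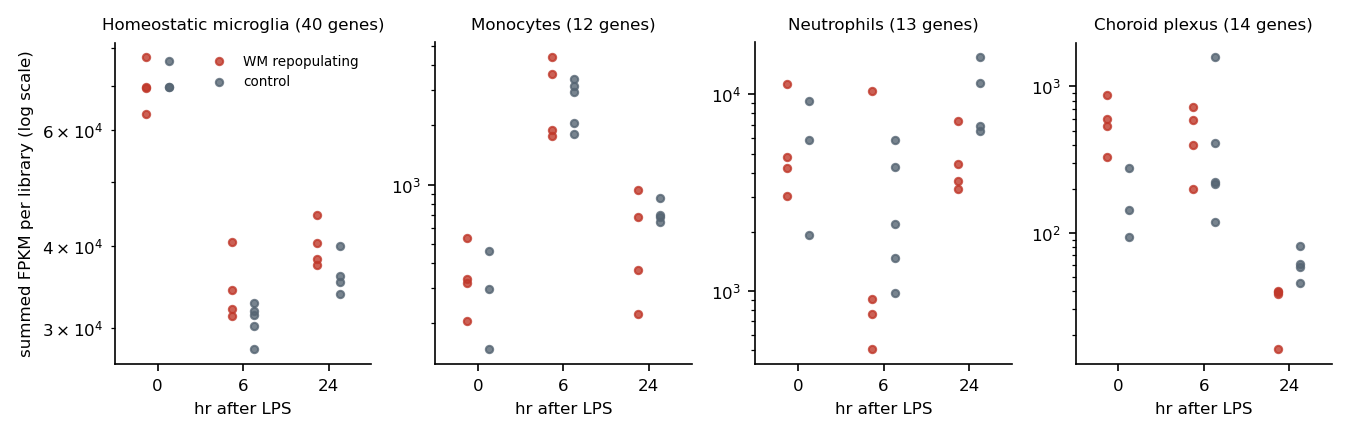
Summed FPKM of marker lists in each library (log axis) at 0, 6 and 24 hr after LPS, WM repopulating cells and control microglia side by side, 1 point per library. Monocyte markers lay between 1769 and 4403 FPKM in the 4 WM repopulating libraries at 6 hr and between 223 and 943 at 24 hr, and choroid plexus markers between 198 and 729 at 6 hr and between 15.96 and 39.9 at 24 hr.

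Between 6 and 24 hr, 1039 of 12684 tested genes were higher (8.19%) and 951 lower (7.50%) in WM repopulating cells (limma on log2(FPKM + 1), Benjamini-Hochberg adjusted p under 0.05 over all genes). Of these, 264 were higher by more than 1 on the log2 scale (2.08%) and 399 lower by more than 1 (3.15%). Most of the change was a return. Of the 951 genes that were lower at 24 hr, 785 had been called higher at 6 hr than at 0 hr, and of the 1039 that were higher, 789 had been called lower at 6 hr. For comparison, 2446 genes (19.3%) were higher and 2475 (19.5%) lower at 6 than at 0 hr, and 1338 (10.5%) were higher and 1051 (8.29%) lower at 24 than at 0 hr. The median change of all genes from 6 to 24 hr was 0.02. Where a list below had no member called in a direction, none had an unadjusted limma p under 0.05 in it either, apart from 2 oxidative phosphorylation genes and the marker lists named above.

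The following time courses follow from these calls, and because each uses the 6 hr or the 0 hr libraries more than once they are descriptions and not tests. "Fell back" names the 785 genes (6.19% of those tested) higher at 6 than 0 hr and lower at 24 than 6 hr, and "recovered" the 789 genes (6.22%) with the mirror image. "Rose late" names 93 genes (0.733%) not called at 6 hr and higher at 24 hr than at both earlier times, and "fell late" the 69 mirror genes (0.544%). Without 1 of the 24 hr replicates 2, 3 and 4 the latter count was 45, 37 and 35. "Rose on" names 11 genes (0.0867%) called higher at each step and "fell on" 10 genes (0.0788%) called lower at each step. The 11 became 7 without 6 hr replicate 4, and the 10 became 5 without 6 hr replicate 2 and 6 without 24 hr replicate 3. A fit of the 12 WM repopulating libraries alone gave 147 genes that rose late, 33 that rose on and 20 that fell on. "Stayed higher" names 765 genes (6.03%) called higher than 0 hr at both times with no call between 6 and 24 hr, and "stayed lower" 632 genes (4.98%). Of the genes that fell back, 258 were still called higher than at 0 hr and 520 were not called, and the median gene kept 27.7% of its 6 hr change at 24 hr. Among the genes that recovered, 188 were still called lower than at 0 hr and 590 were not called, with 23.9% of the change left. Small remainders are built into these time courses, since a called change back from the 6 hr level was required. The median gene that stayed higher kept 85.7% of its 6 hr change and the median gene that stayed lower 84.5%, where such a call was excluded. A missing call does not show that a level held, but in 663 of the 765 genes that stayed higher and 548 of the 632 that stayed lower the 95% interval of the 6 to 24 hr change lay within 1 on the log2 scale.

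**Figure D2:**
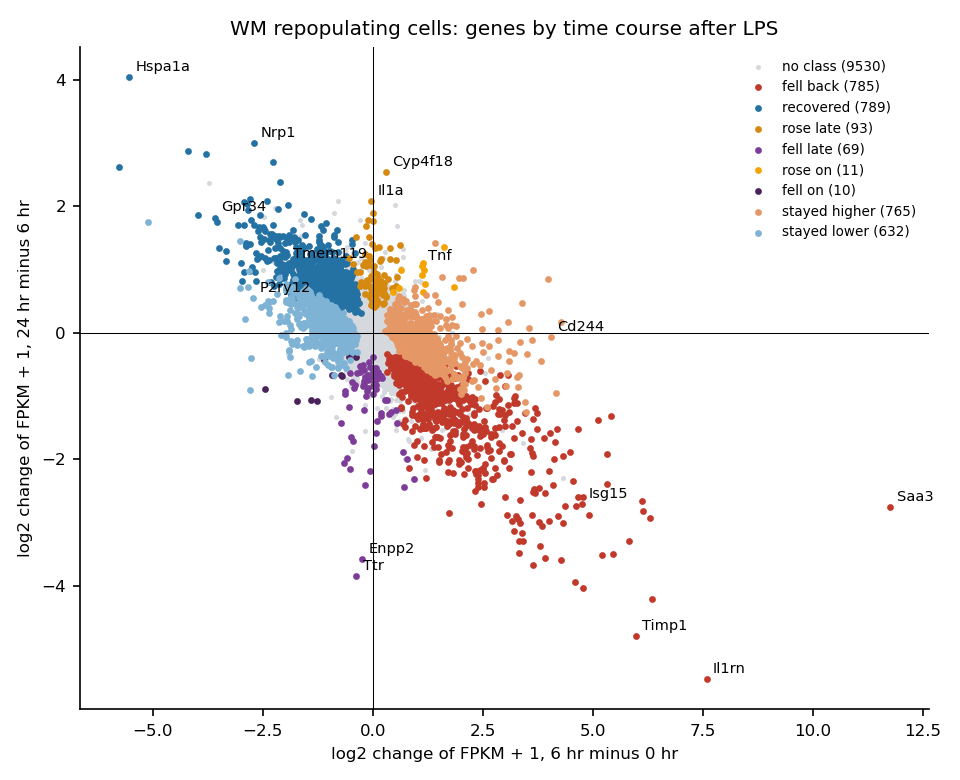
Change from 0 to 6 hr (x) against change from 6 to 24 hr (y) of every tested gene in WM repopulating cells, in log2(FPKM + 1), 1 point per gene, coloured by time course. The 785 genes that fell back lie at the lower right, the 789 that recovered at the upper left, and the 765 and 632 that stayed changed near the horizontal line, and both axes use the same 6 hr libraries.

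The deepest falls among genes of at least 5 FPKM included acute-phase genes and an antagonist of interleukin-1. Il1rn, the interleukin-1 receptor antagonist, was at 0.806, 1.18, 1.19 and 1.19 FPKM at 0 hr, 507, 649, 318 and 250.2 at 6 hr and 7.98, 13.01, 11.6 and 3.31 at 24 hr (libraries are listed in the order of their replicate numbers throughout). All 6 hr libraries lay above all 24 hr libraries, and the change was -5.47 ± 0.51, adjusted p = 2.41e-07 (log2 change of FPKM + 1 ± SE, limma, here and below). Timp1, an inhibitor of matrix metalloproteinases, was at 0.609, 0, 0 and 0 FPKM at 0 hr, 110.5, 73.4, 54.9 and 53.6 at 6 hr and 0.758, 6.91, 0.7004 and 0.811 at 24 hr. It changed by -4.79 ± 0.40, adjusted p = 9.36e-08. Hp, which encodes the haemoglobin scavenger haptoglobin, was at 1393, 1411, 699.8 and 746 FPKM at 6 hr and 43.8, 146, 75.7 and 35.4 at 24 hr, and the groups did not overlap (-3.94 ± 0.51, adjusted p = 1.25e-05). Saa3, a serum amyloid A protein, started from 1.02, 2.98, 0.484 and 0 FPKM at 0 hr, reached 9576, 10775, 3548 and 4797 at 6 hr and still read 741, 1694, 1189 and 560.1 at 24 hr. Its fall of -2.76 ± 0.46, adjusted p = 0.000201 left it 9.01 above 0 hr on the log2 scale (adjusted p = 1.54e-12). AA467197, the host gene of a microRNA, changed by -4.03 ± 0.38, adjusted p = 2.41e-07, and Ifi205, an interferon-inducible gene of the p200 family, by -4.21 ± 0.42, adjusted p = 3.79e-07. Members of the p200 family are close copies of each other, so reads may be shared between them.

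The list of inflammatory effectors had 13 of 26 members lower at 24 than at 6 hr and 2 higher, with a median change of -1.01, against 7.50% lower, 8.19% higher and a median of 0.02 over all genes. Of its members, 14 were still higher at 24 than at 0 hr. Irg1, the enzyme that makes itaconate, was at 0.157, 0, 0.496 and 0.744 FPKM at 0 hr, 129, 215, 76.2 and 51.7 at 6 hr and 11.1, 29.2, 16.1 and 4.51 at 24 hr (-2.92 ± 0.58, adjusted p = 0.00114). It was near 0 in every 0 hr library, and all 4 libraries at 24 hr lay below all 4 at 6 hr. Sod2, the mitochondrial superoxide dismutase, was at 249.6, 319, 164 and 138 FPKM at 6 hr and 31.7, 51.5, 42.4 and 20.8 at 24 hr (-2.54 ± 0.30, adjusted p = 4.27e-06). Of 16 complement genes 4 were lower and 3 higher. Cfb, factor B of the alternative pathway, changed by -2.81 ± 0.42, adjusted p = 6.7e-05, and C3, the central component, by -1.96 ± 0.37, adjusted p = 0.000793, while C4b was higher at 24 hr (1.10 ± 0.30, adjusted p = 0.014). Hmox1, which degrades haem, and Lcn2, which binds bacterial iron carriers, changed by -1.65 ± 0.21, adjusted p = 1.25e-05 and by -2.16 ± 0.52, adjusted p = 0.00558. Spp1 (osteopontin), a gene of the disease-associated and white matter-associated microglial states (DAM and WAM), was at 5.07, 4.87, 3.95 and 2.63 FPKM at 0 hr, 462, 211, 379 and 411 at 6 hr and 60.7, 136, 38.1 and 27.9 at 24 hr, and each 24 hr library lay below each 6 hr library (-2.66 ± 0.42, adjusted p = 0.000117).

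Most monocyte markers were lower at 24 hr as well. Of 12 tested markers, 8 were lower at 24 hr and none higher, with a median of -2.003, against 7.50% lower over all genes. Ccr2, the chemokine receptor that brings monocytes out of the marrow, was at 22.7, 28.4, 23.6 and 12.9 FPKM at 0 hr, 66.03, 45.5, 28.7 and 33.1 at 6 hr and 7.78, 22.9, 14.2 and 6.17 at 24 hr, and Ly6c2, a monocyte surface antigen, at 838, 763, 306 and 378 FPKM at 6 hr and 45.5, 195, 99.8 and 25.5 at 24 hr (-2.89 ± 0.48, adjusted p = 0.000222). Plac8 changed by -3.01 ± 0.41, adjusted p = 2.26e-05. The monocyte list and the inflammatory genes were both high at 6 hr and low at 24 hr in the same libraries, and the part of the marker-positive cells in the fall was not tested.

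**Figure D3:**
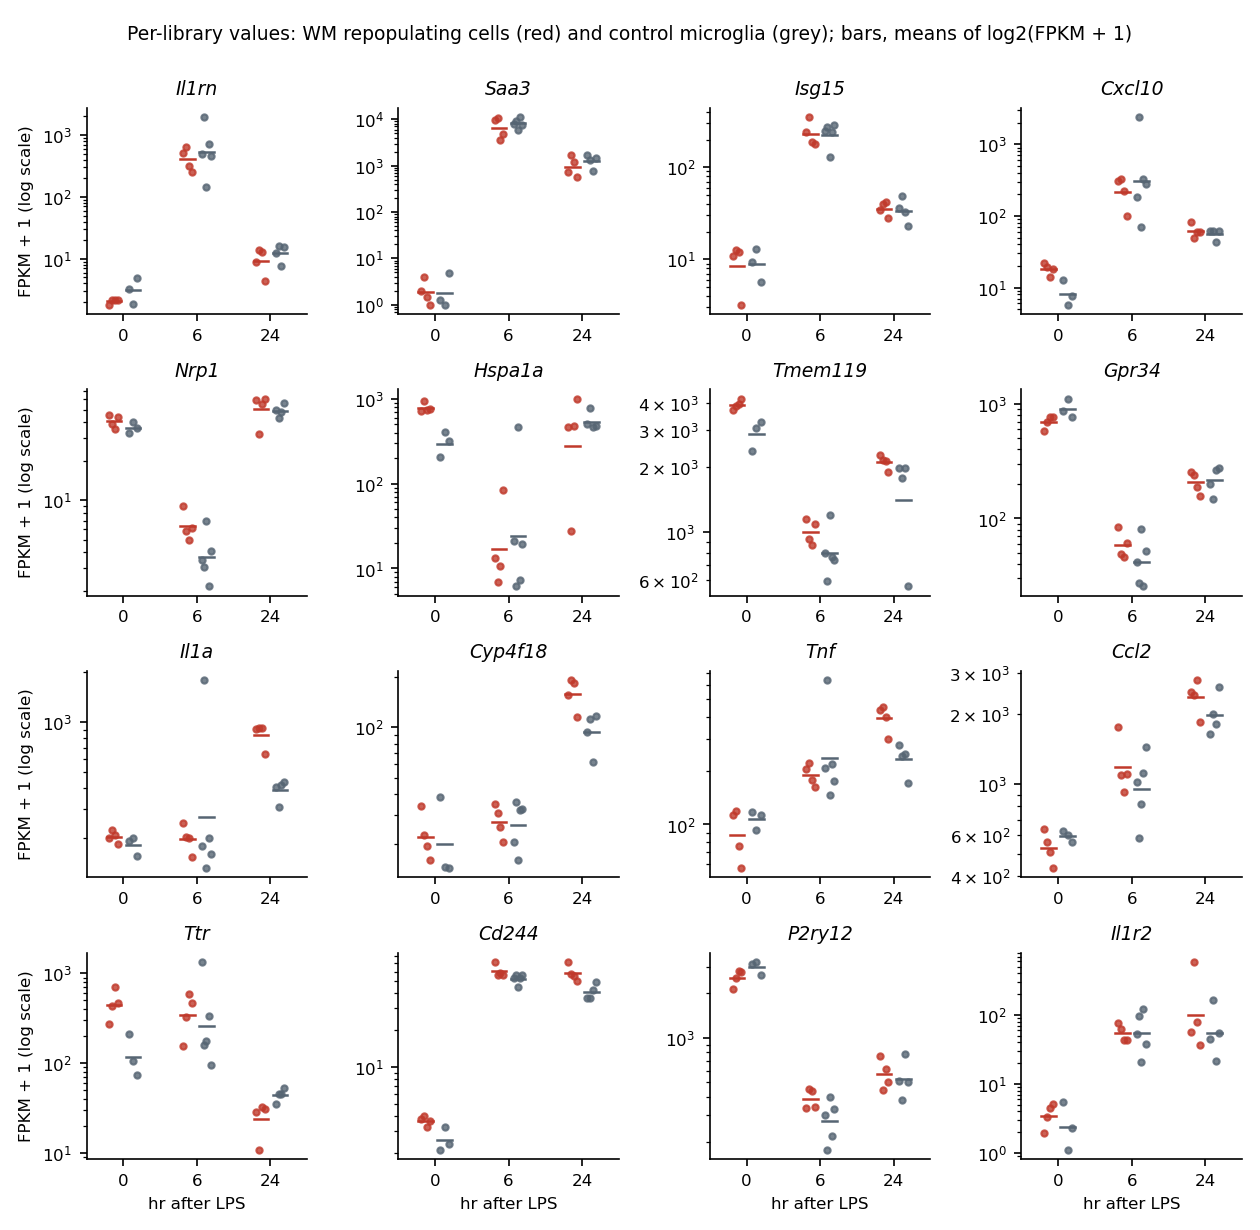
FPKM + 1 of single genes in each library (log axes) at 0, 6 and 24 hr after LPS; WM repopulating cells in red, control microglia in grey, horizontal bars the means of log2(FPKM + 1). Il1rn, Saa3, Isg15 and Cxcl10 were highest at 6 hr, Nrp1, Hspa1a, Tmem119 and Gpr34 lowest at 6 hr, Il1a, Cyp4f18, Tnf and Ccl2 highest at 24 hr, Ttr lowest at 24 hr, and Cd244, P2ry12 and Il1r2 stayed away from the 0 hr level.

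Some interferon-stimulated genes fell from 6 to 24 hr. Among all genes 19.3% were higher at 6 than at 0 hr, 7.50% lower at 24 than at 6 hr and 10.5% higher at 24 than at 0 hr. Of 44 tested members, 42 were higher at 6 than at 0 hr, 17 were lower at 24 than at 6 hr and none was higher, with a median change of -0.65. At 24 hr 36 members were still above 0 hr, and 21 belonged to the genes that stayed higher. Isg15, a ubiquitin-like protein, was at 9.86, 11.7, 10.9 and 2.21 FPKM at 0 hr, 244, 351, 188 and 177 at 6 hr and 33.01, 38.9, 40.6 and 26.9 at 24 hr (-2.71 ± 0.35, adjusted p = 1.42e-05). Each of its libraries at 24 hr lay below each at 6 hr and above each at 0 hr. Isg20, an exonuclease, changed by -2.90 ± 0.31, adjusted p = 1.37e-06, Oas3, a sensor of double-stranded RNA, by -2.02 ± 0.34, adjusted p = 0.000267, Rsad2 (viperin) by -2.20 ± 0.43, adjusted p = 0.00101 and Irf7, the factor that amplifies interferon output, by -1.95 ± 0.37, adjusted p = 0.000832. Ifit1, which binds foreign RNA caps, was at 53.1, 65.5, 49.8 and 43.2 FPKM at 6 hr and 27.2, 23.2, 22.6 and 17.7 at 24 hr (-1.18 ± 0.34, adjusted p = 0.0197). Cxcl10, the chemokine that draws T cells, spread more widely within a time, with 310.3, 330.0, 219 and 97.5 FPKM at 6 hr and 80.2, 47.95, 58.7 and 58.99 at 24 hr, and changed by -1.82 ± 0.61, adjusted p = 0.0432. The call of Cxcl10 was lost without 0 hr replicate 2 or 4, 6 hr replicate 1, 2 or 3 or 24 hr replicate 1, 2, 3 or 4 (adjusted p up to 0.124, without 6 hr replicate 2), and the call of Ifit1 was lost without 6 hr replicate 2 or 24 hr replicate 4 (adjusted p up to 0.0665, without 6 hr replicate 2).

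Promoter stretches of 5 genes that fell back are shown because they carry the letters that NF-kB and interferon-activated factors are known to bind. They come from RefSeq (GRCm38.p6) and are written 5′ to 3′ on the strand of the gene. Capitals mark every match to GGANTTTCC (NF-kB letters) or GAAANNGAA (interferon response element letters) on either strand, and overlapping matches were joined. The stretches lie at chr4:156200831-156200916 on the minus strand, 98 to 13 bases before the start for Isg15, at chr5:92349019-92349122 on the minus strand, 233 to 130 bases before the start for Cxcl10, at chr5:120777700-120777754 on the minus strand, 95 to 41 bases before the start for Oas3, at chr19:34640760-34640833 on the plus strand, 129 to 56 bases before the start for Ifit1 and at chr14:103046907-103046955 on the plus strand, 105 to 57 bases before the start for Irg1.
Isg15: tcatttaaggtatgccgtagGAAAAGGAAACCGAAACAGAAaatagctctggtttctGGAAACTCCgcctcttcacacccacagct
Cxcl10: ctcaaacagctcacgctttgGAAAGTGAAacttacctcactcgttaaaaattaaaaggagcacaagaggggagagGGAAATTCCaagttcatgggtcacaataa
Oas3: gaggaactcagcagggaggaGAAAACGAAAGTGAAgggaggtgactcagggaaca
Ifit1: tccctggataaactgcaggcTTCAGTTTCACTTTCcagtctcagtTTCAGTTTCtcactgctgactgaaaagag
Irg1: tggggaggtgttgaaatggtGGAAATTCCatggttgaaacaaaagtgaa

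Isg15 and Cxcl10 hold both kinds of letters, Oas3 and Ifit1 the interferon letters and Irg1 the NF-kB letters. Over the 250 bases before the start, 1.19% of 12365 promoters of tested genes held the NF-kB letters and 6.36% the interferon letters. Only 9793 of 12684 genes (77.2%) had a promoter in the table, and no time course reached the 80% coverage set for a comparison (624 of 785 genes that fell back, for example), so shares by time course were not compared. A match describes letters in a window and shows no binding.

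Parts of the glycolysis and cholesterol synthesis lists were lower at 24 hr, against 7.50% of all genes lower and 8.19% higher. Of 22 glycolysis genes 8 were lower at 24 hr and 1 higher, with a median of -0.39. Slc2a1, the glucose transporter GLUT1, was at 31.3, 32.4, 31.3 and 30.8 FPKM at 0 hr, 121, 157, 119 and 99.1 at 6 hr and 55.1, 59.2, 47.3 and 42.5 at 24 hr, with all 24 hr libraries below all 6 hr libraries (-1.26 ± 0.29, adjusted p = 0.00481). Pfkp, a phosphofructokinase, changed by -1.89 ± 0.32, adjusted p = 0.000225. In contrast Pfkfb4, which sets the level of the activator of phosphofructokinase, was higher at 24 hr (1.18 ± 0.23, adjusted p = 0.0011). Of 23 genes of cholesterol synthesis and uptake 6 were lower and 2 higher. Sqle and Fdft1, enzymes of the squalene steps, changed by -1.35 ± 0.31, adjusted p = 0.0045 and by -1.16 ± 0.21, adjusted p = 0.000617. Of 12 cholesterol efflux genes 4 were higher and none lower, with a median of 0.04. The higher ones included the lipid exporter Abcg1 at 60.5, 54.2, 63.7 and 46.9 FPKM at 6 hr and 135, 299, 151 and 97.5 at 24 hr (1.46 ± 0.27, adjusted p = 0.000708) and the lipid carrier Apoe at 1516, 1692, 936 and 1349 FPKM at 6 hr and 3746, 4047, 4026 and 2045 at 24 hr (1.32 ± 0.24, adjusted p = 0.000632). Every 24 hr library lay above every 6 hr library for both. Of 34 proteasome subunits 8 were lower and none higher, led by Psma6 (-0.91 ± 0.16, adjusted p = 0.000471).

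Some genes of the resting microglial state were higher at 24 than at 6 hr. Of all genes, 19.5% were lower at 6 than at 0 hr and 8.29% at 24 than at 0 hr. From 6 to 24 hr, 8.19% of all genes were higher and 7.50% lower. Of 40 homeostatic genes, 33 were lower at 6 than at 0 hr, 10 were higher and 1 lower at 24 than at 6 hr, and 25 were still lower at 24 than at 0 hr, with a median 6 to 24 hr change of 0.39. The count of 10 became 5 without 6 hr replicate 1 or 4 and 4 without 24 hr replicate 1 or 3, and it was 17 in a fit of the 12 WM repopulating libraries alone and 16 in a fit of the 8 compared libraries. Tmem119, a microglial surface protein, was at 3688, 3862, 3941 and 4182 FPKM at 0 hr, 1149, 925, 872 and 1086 at 6 hr and 2277, 2157, 2148 and 1904 at 24 hr. Its 24 hr libraries lay above its 6 hr libraries and below its 0 hr libraries (1.08 ± 0.28, adjusted p = 0.0089), although quantile normalization ended this call (adjusted p = 0.0606). Gpr34, a lysophosphatidylserine receptor, was at 578, 689, 764 and 770.0 FPKM at 0 hr, 82.7, 48.1, 44.9 and 60.01 at 6 hr and 256, 238, 187 and 156 at 24 hr (1.82 ± 0.28, adjusted p = 8.13e-05), and it was still -1.76 relative to 0 hr on the log2 scale. Cx3cr1, the fractalkine receptor, and Sall1, a transcription factor of microglial identity, changed by 0.72 ± 0.24, adjusted p = 0.0402 and by 0.47 ± 0.16, adjusted p = 0.0491. The call of Cx3cr1 was lost without 6 hr replicate 2, 3 or 4 or 24 hr replicate 1, 3 or 4 (adjusted p up to 0.132, without 24 hr replicate 1), and the call of Sall1 was lost without any 1 of the 12 libraries (adjusted p up to 0.134, without 6 hr replicate 1). P2ry12, the purinergic receptor of resting processes, was at 2133, 2542, 2797 and 2765 FPKM at 0 hr, 334, 450.1, 438 and 342 at 6 hr and 749.5, 441, 619 and 505 at 24 hr. Its change of 0.55 ± 0.23, adjusted p = 0.103 did not pass the test, with a 95% interval of 0.08 to 1.02, and it remained -2.16 relative to 0 hr (adjusted p = 4.29e-07). Csf1r was likewise not called between the times (0.30 ± 0.19, adjusted p = 0.295) and lower than at 0 hr (-0.79, adjusted p = 0.00385).

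Recoveries were also measured outside the homeostatic list, and those of Nrp1 and Slc46a3 were larger than that of Gpr34. Nrp1, the co-receptor neuropilin-1, was at 44.3, 37.8, 34.6 and 42.8 FPKM at 0 hr, 8.12, 4.77, 3.94 and 5.12 at 6 hr and 58.5, 31.3, 54.4 and 59.8 at 24 hr. The 24 hr values overlapped those at 0 hr and stood clear of those at 6 hr (2.998 ± 0.25, adjusted p = 9.36e-08). Slc46a3, a lysosomal transporter, was at 101, 97.5, 109.7 and 132 FPKM at 0 hr, 8.1004, 3.57, 4.73 and 4.53 at 6 hr and 51.1, 38.4, 47.6 and 36.2 at 24 hr (2.87 ± 0.38, adjusted p = 1.83e-05). Of 36 lysosomal genes 24 had been lower at 6 hr, and at 24 hr 14 were higher than at 6 hr and none lower, with a median of 0.40. Over all genes 19.5% were lower at 6 than at 0 hr, and 8.19% were higher at 24 than at 6 hr. Ctsh, the protease cathepsin H, was at 418, 395, 369.8 and 341 FPKM at 6 hr and 1081, 859, 962 and 828 at 24 hr (1.29 ± 0.11, adjusted p = 9.36e-08). Mcoln1, the calcium channel of lysosomes, changed by 1.38 ± 0.21, adjusted p = 7.54e-05, and Lipa, the acid lipase that frees cholesterol from its esters, by 0.93 ± 0.15, adjusted p = 0.000117. Cd180, a Toll-like receptor homologue that damps LPS signalling, changed by 1.13 ± 0.20, adjusted p = 0.000403. H2-DMb1 and H2-M3, which act in class II peptide loading and as a non-classical class I molecule, changed by 0.95 ± 0.15, adjusted p = 0.000138 and by 1.002 ± 0.17, adjusted p = 0.00032. Among immediate early genes 7 of 22 were higher and none lower, with Atf3 at 87.4, 126, 147 and 137 FPKM at 6 hr and 347, 440.1, 426 and 506 at 24 hr (1.79 ± 0.30, adjusted p = 0.000201) and Btg2, a brake on proliferation, at 436, 308, 414 and 491 FPKM at 6 hr and 841, 1042, 813 and 918 at 24 hr (1.14 ± 0.23, adjusted p = 0.00111).

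Some chaperones were higher at 24 than at 6 hr, and 1 library stood apart in them. Between these times 8.19% of all genes were higher and 7.50% lower. At 6 hr, 19.5% of all genes were lower and 19.3% higher than at 0 hr. Of 18 heat shock chaperones 9 were lower at 6 than at 0 hr, 8 were higher and 2 lower at 24 than at 6 hr, and 7 recovered. Of 27 genes of endoplasmic reticulum folding and the unfolded protein response 11 were higher and 2 lower at 24 than at 6 hr, but at 6 hr only 2 had been lower than at 0 hr and 7 higher, and 2 recovered. Hspa1a, an inducible HSP70, was at 725, 950.3, 736 and 751 FPKM at 0 hr, 12.2, 6.01, 9.67 and 83.6 at 6 hr and 466, 26.6, 475 and 1003 at 24 hr. At 24 hr replicate 2 held 26.6 FPKM and fell within the 6 hr range, while the other libraries lay far above it (4.04 ± 1.02, adjusted p = 0.00838). Dnajb1, a co-chaperone of HSP70, was at 98.1, 71.5, 85.1 and 118 FPKM at 6 hr and 342, 179, 291 and 391 at 24 hr (1.65 ± 0.25, adjusted p = 9.04e-05). Hspa5 (BiP) and Sdf2l1, both of the endoplasmic reticulum, changed by 0.93 ± 0.22, adjusted p = 0.00526 and by 1.62 ± 0.23, adjusted p = 4.45e-05, and replicate 2 was again the lowest 24 hr library for both. Without it 11 heat shock genes and 18 endoplasmic reticulum genes were higher. The heat shock count was 5 without 6 hr replicate 2 or 3 or without 24 hr replicate 1, 3 or 4. The endoplasmic reticulum count lay between 5 and 7 without 6 hr replicate 2, 3 or 4 or without 24 hr replicate 1, 3 or 4, and was 7 in a fit of the 8 compared libraries. Asns, the asparagine synthetase of the amino acid response, went down instead (-1.37 ± 0.26, adjusted p = 0.000896).

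A small group of inflammatory genes reached its highest level at 24 hr. Il1a, the interleukin-1 alpha cytokine, was at 199.9, 222, 207 and 183 FPKM at 0 hr, 247, 203, 199.6 and 152 at 6 hr and 908, 924, 919 and 641 at 24 hr. All 24 hr libraries lay above all earlier ones (2.08 ± 0.47, adjusted p = 0.00381). Tnf, which rose at both steps, was at 112, 117, 74.99 and 56.1 FPKM at 0 hr, 202, 218, 177 and 160.1 at 6 hr and 437, 450.0, 398 and 300.4 at 24 hr (1.05 ± 0.31, adjusted p = 0.0202), and the call of Tnf was lost without 6 hr replicate 4 or 24 hr replicate 1 or 2 (adjusted p up to 0.0551, without 24 hr replicate 1). Ccl2, the chemokine that recruits monocytes, was at 639.7, 558, 506 and 433 FPKM at 0 hr, 1756, 1094, 926 and 1097 at 6 hr and 2494, 2415, 2796 and 1844 at 24 hr (0.998 ± 0.23, adjusted p = 0.00362). Ccl3 and Ccl4, chemokines of the same family, did not pass the test (1.21 ± 0.46, adjusted p = 0.0772 and 1.32 ± 0.60, adjusted p = 0.141), although every 24 hr library lay above every 6 hr library. A fit of the 12 WM repopulating libraries alone called Ccl3 (adjusted p = 0.000135). As a list, early cytokines and chemokines had 4 of 29 members higher and 8 lower, with a median of 0.17, and 5 lower without 6 hr replicate 1 or without 24 hr replicate 4. The shares over all genes were 8.19% higher and 7.50% lower. In the fit of 12 libraries 8 members were higher and 10 lower, and in a fit of only the 8 compared libraries 9 were higher and 10 lower.

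Within the NF-kB pathway and its feedback 5 of 28 genes were higher and 4 lower, against 8.19% and 7.50% over all genes. Nfkbiz, the nuclear inhibitor-like protein that helps switch on secondary genes, was at 75.9, 61.7, 51.7 and 61.2 FPKM at 0 hr, 62.04, 59.3, 64.9 and 72.9 at 6 hr and 152, 170.3, 159 and 178 at 24 hr (1.33 ± 0.23, adjusted p = 0.000353). Rel, an NF-kB subunit, changed by 1.54 ± 0.26, adjusted p = 0.000233. It had been at 46.8 to 69.9 FPKM at 0 hr and at 23.5 to 30.5 at 6 hr, so it recovered and did not rise late. The feedback inhibitors Tnfaip3 and Nfkbia were not called (1.26 ± 0.57, adjusted p = 0.137 and 0.48 ± 0.25, adjusted p = 0.197), and Tnip3 was lower (-1.70 ± 0.38, adjusted p = 0.00314). A pair of enzymes of lipid mediators rose late. Cyp4f18, which inactivates leukotriene B4, was at 32.98, 21.6, 18.4 and 15.2 FPKM at 0 hr, 33.9, 29.7, 24.2 and 19.5 at 6 hr and 155, 190.4, 183 and 115 at 24 hr, with no overlap between 24 hr and the earlier times (2.54 ± 0.31, adjusted p = 4.94e-06). Alox5, which makes leukotrienes, changed by 1.51 ± 0.23, adjusted p = 8.34e-05. Skil and Tgif1, repressors in the transforming growth factor beta pathway, changed by 1.11 ± 0.24, adjusted p = 0.00211 and by 1.47 ± 0.16, adjusted p = 1.37e-06, and Tgfb1 itself by 0.76 ± 0.19, adjusted p = 0.00771. Skil rose late, while Tgif1 and Tgfb1 belonged to the genes that recovered from a lower level at 6 hr. Maff, a small Maf factor, changed by 1.35 ± 0.29, adjusted p = 0.00236, and Ctsl, the protease cathepsin L, by 0.90 ± 0.21, adjusted p = 0.00477.

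Late falls were led by genes of the choroid plexus, the epithelium that makes cerebrospinal fluid. Ttr, which encodes transthyretin and is the most abundant of its transcripts, was at 273, 431, 703 and 469 FPKM at 0 hr, 153, 324, 589.6 and 469 at 6 hr and 27.9, 9.96, 31.8 and 30.4 at 24 hr. Every 24 hr library lay below every earlier library (-3.85 ± 0.56, adjusted p = 5.05e-05). Enpp2 (autotaxin) changed by -3.57 ± 0.52, adjusted p = 5.05e-05 and Igfbp2 by -2.05 ± 0.52, adjusted p = 0.00814. A marker list of this epithelium, added after these values were seen, had 7 of 9 tested genes lower and none higher, and its 14 genes summed to 198 to 729 FPKM at 6 hr and to 15.96 to 39.9 at 24 hr. At 0 hr they summed to 332 to 881 FPKM, so the 24 hr libraries held the least of this RNA. Its part in the late falls was not tested. Il6, which is no marker of that tissue, was at 6.98, 7.87, 8.98 and 8.62 FPKM at 0 hr, 15.7, 13.6, 16.9 and 12.2 at 6 hr and 3.72, 6.27, 2.29 and 0.996 at 24 hr and was lower at 24 than at 6 hr (-1.998 ± 0.36, adjusted p = 0.00053).

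Genes that stayed higher included Cd244, an immune receptor of the SLAM family. It was at 2.74, 2.99, 2.22 and 2.63 FPKM at 0 hr, 70.6, 55.6, 57.5 and 55.3 at 6 hr and 70.99, 55.8, 54.04 and 48.9 at 24 hr, so that the 6 and 24 hr values overlapped and all stood above 0 hr. Its 6 to 24 hr change of -0.06 ± 0.15, adjusted p = 0.824 had a 95% interval of -0.37 to 0.24. Il1b, the interleukin-1 beta cytokine, was at 11.6, 5.01, 10.9 and 2.51 FPKM at 0 hr, 139, 136, 60.5 and 59.6 at 6 hr and 85.3, 70.8, 124 and 66.02 at 24 hr. It was 3.499 above 0 hr at 24 hr (adjusted p = 0.000194), but libraries of one time spread widely and the interval of the change from 6 hr was -1.35 to 1.12. Ccl12, a monocyte chemokine, was at 5972, 6899, 4427 and 3233 FPKM at 6 hr and 6568, 5229, 5205 and 5357 at 24 hr (0.17 ± 0.29, adjusted p = 0.739). Ecm1, an extracellular matrix protein, and AI607873, an interferon-inducible gene of the p200 family, were 4.47 and 3.62 above 0 hr at 24 hr (adjusted p = 2.35e-07 and 2.14e-10). Il1r2, the decoy receptor of interleukin-1, was at 0.909, 2.36, 3.44 and 4.01 FPKM at 0 hr, 76.3, 62.4, 42.02 and 42.5 at 6 hr and 54.7, 586, 78.8 and 35.6 at 24 hr, where the 24 hr value of replicate 2 stood far above the other 3 (0.84 ± 0.69, adjusted p = 0.456). Of 83 cytosolic ribosomal protein genes 63 were higher at 6 than at 0 hr, 39 stayed higher and 5 were lower at 24 than at 6 hr. Over all genes the shares were 19.3%, 6.03% and 7.50%, so the 5 lower genes lay near the last share. Among genes that stayed lower, Cd209a, a C-type lectin of dendritic cells, was -3.69 at 24 hr relative to 0 hr, Dbp, a clock-controlled transcription factor, -2.25, and Cd74, the class II invariant chain, -0.86 (adjusted p = 6.66e-06, 4.34e-07 and 0.024).

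**Figure D4:**
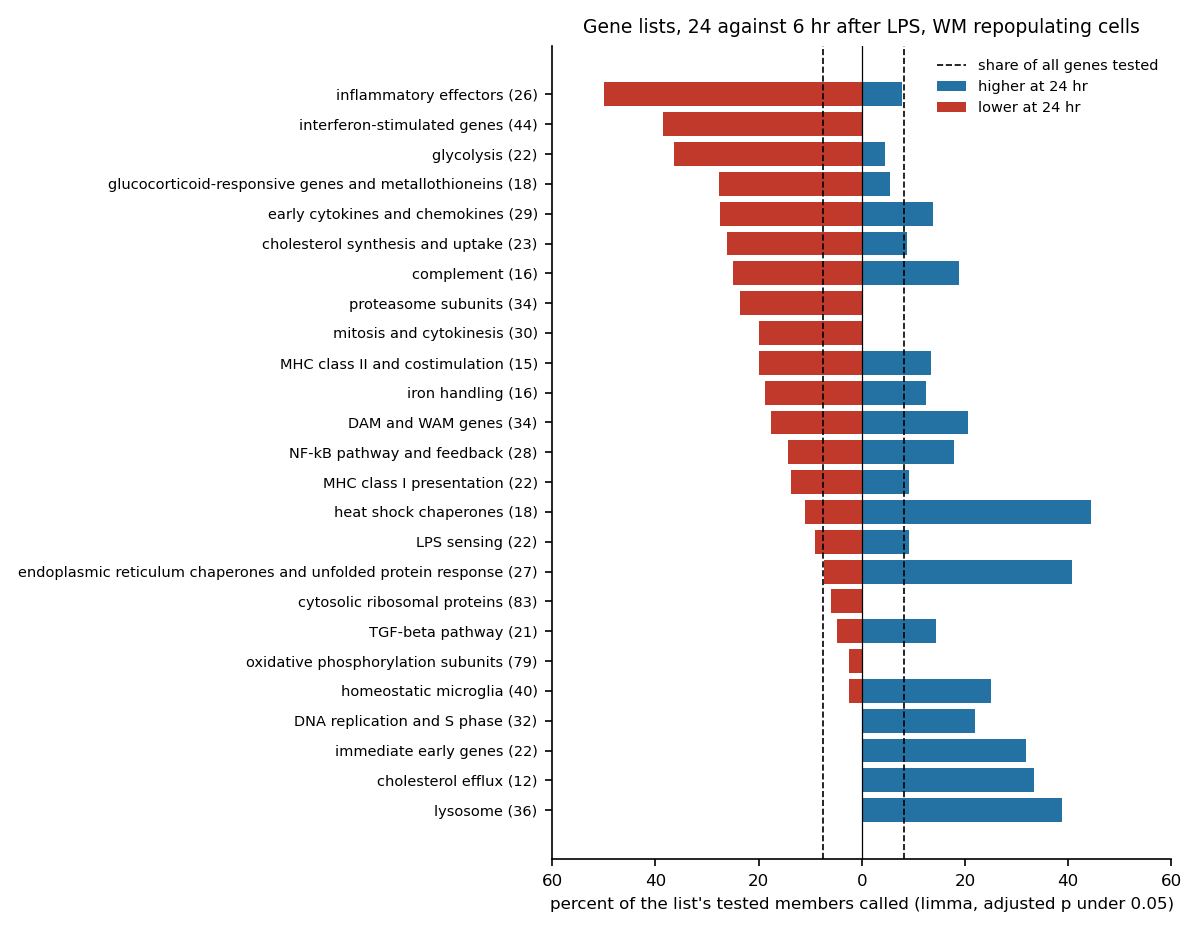
Percent of the tested members of each gene list that were called higher or lower at 24 than at 6 hr in WM repopulating cells (limma, adjusted p under 0.05); dashed lines mark 8.19% and 7.50%, the shares over all 12684 genes. Inflammatory effectors (13 of 26), interferon-stimulated genes (17 of 44) and glycolysis genes (8 of 22) lie mostly on the lower side, and lysosomal genes (14 of 36) and chaperones (8 of 18 and 11 of 27) on the higher side.

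Further lists gave the following counts, against 8.19% higher and 7.50% lower over all genes. Of 34 DAM and WAM genes 7 were higher and 6 lower, with Lgals3 (galectin-3) and Fabp5 among the lower ones (-1.56 ± 0.37, adjusted p = 0.00494 and -1.44 ± 0.26, adjusted p = 0.000589) and Axl, a receptor for apoptotic cells, among the higher (0.94 ± 0.27, adjusted p = 0.0191), and the call of Axl was lost without 6 hr replicate 1 or 3 or 24 hr replicate 1 or 3 (adjusted p up to 0.0837, without 6 hr replicate 3). Clec7a and Cst7 were not called (-0.37 ± 0.26, adjusted p = 0.365 and -0.25 ± 0.25, adjusted p = 0.549). The glucocorticoid and metallothionein list had 5 of 18 lower and 1 higher. Fkbp5, a glucocorticoid-induced chaperone, was at 128, 157, 189 and 199 FPKM at 6 hr and 42.9, 169, 70.4 and 39.6 at 24 hr, with replicate 2 the highest at 24 hr (-1.29 ± 0.35, adjusted p = 0.0138), and the call of Fkbp5 was lost without 24 hr replicate 1 or 4 (adjusted p up to 0.064, without 24 hr replicate 4). Of 30 genes of mitosis and cytokinesis 6 were lower and none higher, with a median of -0.58 and 16 lower at an unadjusted p under 0.05. Top2a, a topoisomerase, was among the 6 (-1.28 ± 0.32, adjusted p = 0.00848), and Mki67 was not called (-0.65 ± 0.26, adjusted p = 0.0924). Oxidative phosphorylation subunits had 2 of 79 lower. Among LPS sensors 2 of 22 were higher and 2 lower, close to the shares over all genes, while Cd14 and Tlr2 were not called (-0.38 ± 0.38, adjusted p = 0.55 and -0.20 ± 0.47, adjusted p = 0.823). The lists of MHC class I presentation, MHC class II and costimulation, and iron handling each had 2 genes higher and 3 lower, of 22, 15 and 16 tested, and the transforming growth factor beta pathway had 3 of 21 higher and 1 lower.

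Control microglia, measured with the same 6 to 24 hr interval, had 1907 genes higher (15%) and 1686 lower (13.3%). The difference between the cell origins was tested as an interaction (change in WM repopulating cells minus change in control microglia). It was called positive for 2 genes (0.0158%) and negative for 18 (0.142%), and 1208 genes had an unadjusted p under 0.05. No positive difference was called without 0 hr replicate 3, 6 hr replicate 1, 2, 3 or 4, 24 hr replicate 1, 2 or 4, control 6 hr replicate 5 or control 24 hr replicate 1, 1 was called without 0 hr replicate 1, 2 or 4, 24 hr replicate 3, control 6 hr replicate 1 or control 24 hr replicate 4, and 6 were called without control 6 hr replicate 2. Without 6 hr replicate 1, 6 hr replicate 4 or 24 hr replicate 1 of the WM repopulating cells 10 negative differences were called, and without both libraries that stood apart (6 hr replicate 1 and 24 hr replicate 2), an alternative added after the data were seen, 1 negative difference was called and no positive one. Of the 785 genes that fell back 3 had a called difference, and of the 789 that recovered 5, which does not show that the other genes changed alike in both origins. Isg15, for example, differed by 0.03 ± 0.49, adjusted p = 0.993 and Il1rn by -0.03 ± 0.70, adjusted p = 0.995.

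Among the gene lists, DNA replication and S phase held the most called differences. Of 32 genes of DNA replication and S phase, 7 were higher at 24 than at 6 hr in WM repopulating cells and 30 in control microglia, with median changes of 0.42 and 1.46, and 6 had a called negative difference. The 7 became 4 or 3 without 6 hr replicate 2 or 3 or without 24 hr replicate 1 or 3. Lig1, the ligase that joins Okazaki fragments, was at 2.44, 2.105, 1.65 and 2.197 FPKM at 6 hr and 3.91, 3.15, 5.18 and 5.64 at 24 hr in WM repopulating cells and at 1.63, 4.27, 1.18, 1.39 and 1.63 FPKM at 6 hr and 20.02, 23.1, 18.3 and 31.7 at 24 hr in control microglia. The 24 hr ranges did not overlap, and the difference was -2.25 ± 0.31, adjusted p = 0.00245, which was the call that remained without both libraries (adjusted p = 0.044). Gins2, a subunit of the replicative helicase complex, was at 4.198, 5.06, 5.05 and 5.28 FPKM at 6 hr and 8.82, 7.34, 5.25 and 6.95 at 24 hr in WM repopulating cells and at 3.01, 2.87, 1.11, 2.69 and 3.31 FPKM at 6 hr and 24.4, 18.7, 14.96 and 18.8 at 24 hr in control microglia. It was higher than in control microglia at 6 hr and lower at 24 hr, without overlap at either time (-2.07 ± 0.35, adjusted p = 0.00731). Mcm6, a helicase subunit that the naming rule did not pick and that was chosen after its values were seen, was at 10.8, 7.13, 9.51 and 10.4 FPKM at 6 hr and 11.99, 18.3, 17.7 and 12.4 at 24 hr against 5.9999, 8.15, 5.502, 7.45 and 12.1 FPKM at 6 hr and 50.2, 49.2, 45.3 and 42.7 at 24 hr in control microglia (-1.87 ± 0.35, adjusted p = 0.0207), and the call of Mcm6 was lost without 6 hr replicate 1 or 4, 24 hr replicate 1 or 4 or control 24 hr replicate 1 (adjusted p up to 0.0623, without 6 hr replicate 1). Mcm5, of the same helicase, rose in WM repopulating cells (1.22 ± 0.31, adjusted p = 0.00819) and its difference of -1.65 ± 0.42, adjusted p = 0.14 was not called. For the mitosis list no difference was called, and its median difference was -0.62. The NF-kB list had no called difference either, but a median difference of 0.89. Of its 28 genes 1 was higher and 14 were lower in control microglia, against 5 and 4 in WM repopulating cells. The glucocorticoid and metallothionein list had a median difference of 0.88, also without a call.

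**Figure D5:**
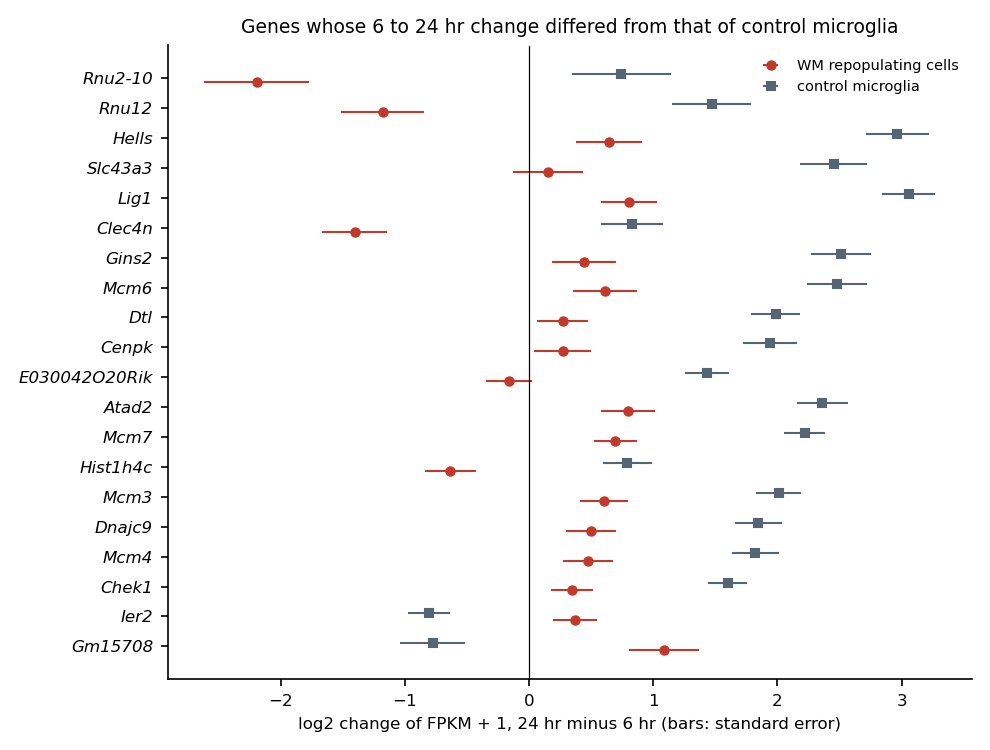
Change from 6 to 24 hr, in log2(FPKM + 1) with standard errors, in WM repopulating cells and in control microglia for the genes whose change differed between them. Of the 20 called genes 18 changed less or more negatively in WM repopulating cells, Lig1 by -2.25 and Clec4n by -2.23.

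Clec4n (dectin-2), a C-type lectin of macrophages, was lower at 24 hr in WM repopulating cells, at 18.9, 15.9, 11.97 and 9.06 FPKM at 6 hr and 4.64, 3.33, 6.51 and 3.86 at 24 hr, and was at 11.3, 7.42, 9.12, 9.63 and 11.04 FPKM at 6 hr and 15.2, 13.4, 13.98 and 35.1 at 24 hr in control microglia (-2.23 ± 0.36, adjusted p = 0.00658). It belongs to the border-associated macrophage markers, of which it was the 1 called difference among 11, with a median difference of -0.64. The 12 listed markers summed to 75.5 to 129 FPKM at 0 hr, 140.0 to 181 at 6 hr and 104 to 120 at 24 hr in WM repopulating cells, and to 133 to 227 FPKM at 0 hr, 107 to 206 at 6 hr and 137 to 166 at 24 hr in control microglia. The sums were lower in WM repopulating cells at 0 hr and at 24 hr, without overlap, and overlapped at 6 hr. The part of these markers in the difference was not tested. The spliceosomal RNA genes Rnu12 and Rnu2-10 differed by -2.65 ± 0.46, adjusted p = 0.00902 and by -2.94 ± 0.58, adjusted p = 0.0314. Such short genes belong to families of near-identical copies, so their values are uncertain, and the call of Rnu2-10 was lost without 6 hr replicate 1, 2 or 4, 24 hr replicate 1, 2, 3 or 4, control 6 hr replicate 3 or control 24 hr replicate 1 or 4 (adjusted p up to 0.0801, without control 24 hr replicate 4). Ier2, an immediate early gene, had 1 of the positive differences (1.18 ± 0.25, adjusted p = 0.0471), and the call of Ier2 was lost without 0 hr replicate 1, 2, 3 or 4, 6 hr replicate 1, 2, 3 or 4, 24 hr replicate 1, 2 or 4, control 6 hr replicate 1, 2, 3 or 5 or control 24 hr replicate 1 or 4 (adjusted p up to 0.119, without 24 hr replicate 4). Without the control libraries that stood apart (6 hr replicate 2 and 24 hr replicate 4), a fit added after the data were seen, the differences of Ier2 and Rnu2-10 were not called, and Nfkbiz and Egr1 had called positive differences of 0.92 and 1.37, against 1.21 ± 0.32, adjusted p = 0.173 and 1.40 ± 0.47, adjusted p = 0.31 with all libraries.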

How the data were processed

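The deposited table held FPKM values per gene and library that the authors made from CD11b+CD45int cells: per the study's methods, Smart-seq2 and Nextera libraries, paired-end sequencing, STAR 2.5.1b, feature counts, then edgeR and limma. The submitters' processing notes name featureCounts and the build mm10. The labels describe other platforms and frozen microdissected tissue. The study's methods give microdissection for the subventricular zone samples. Which platform and library preparation applied to these libraries is not settled here. Depth was read from the steps of the values, which were whole multiples of 1 read (tolerance 0.001) in 100% of 3860 low genes, and such values carry no count test here.

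Of 15285 genes, the 12684 that reached an FPKM of 1 in 3 or more of the 24 libraries were tested on log2(FPKM + 1) with limma 3.58.1 (R 4.3.3), 1 mean for each of 6 groups, a variance trend and Benjamini-Hochberg adjustment. The added 1 makes changes of weakly expressed genes look smaller. Replicates were not paired. Named genes were 45 anchors, the 5 largest per time course, the 4 largest differences per sign and up to 4 per list, of which some are not reported here. The members, 34 lists and 2 later ones were chosen with earlier results of these data known. On simulated data with 12684 genes the fit of the 6 to 24 hr comparison recovered 72 of 100 genes changed by 1 and 98 of 100 changed by 2 on the log2 scale, and called 11 unchanged genes. The changed genes were drawn from those with a mean log2(FPKM + 1) above 1, and the noise was normal and independent. These rates therefore do not cover weakly expressed genes or libraries that stand apart. Figures used Python 3.11.15 and matplotlib 3.10.9. Alternatives are given at the end.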

Additional observations from a re-analysis of the deposited data

Results flagged for a closer look

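In 20 of 281 pairs of a named gene and a WM repopulating group, 1 of the 4 libraries lay apart from the other 3 by Dixon's test, of which chance alone flags about 1 in 20. At 24 hr these were Apoe in 24 hr replicate 4 (2045 FPKM, others 3746 to 4047), Ccl12 in 24 hr replicate 1 (6568 FPKM, others 5205 to 5357), Ccl3 in 24 hr replicate 2 (3394 FPKM, others 1909.7 to 2037), Il1a in 24 hr replicate 4 (641 FPKM, others 908 to 924), Nrp1 in 24 hr replicate 2 (31.3 FPKM, others 54.4 to 59.8), Timp1 in 24 hr replicate 2 (6.91 FPKM, others 0.7004 to 0.811) and Ttr in 24 hr replicate 2 (9.96 FPKM, others 27.9 to 31.8). At 6 hr they were Cd244 in 6 hr replicate 1 (70.6 FPKM, others 55.3 to 57.5), Cx3cr1 in 6 hr replicate 1 (966 FPKM, others 685 to 709.5), Ighj1 in 6 hr replicate 3 (7.81 FPKM, the others at 0), Nfkbia in 6 hr replicate 4 (1224 FPKM, others 1506 to 1533), Rel in 6 hr replicate 2 (23.5 FPKM, others 29.3 to 30.5) and Tlr2 in 6 hr replicate 4 (293 FPKM, others 401 to 423). At 0 hr they were AI607873 in 0 hr replicate 4 (3.39 FPKM, others 5.53 to 6.03), Btg2 in 0 hr replicate 1 (1125 FPKM, others 958 to 981), Cd209a in 0 hr replicate 2 (42.5 FPKM, others 20.6 to 23.1), Hspa1a in 0 hr replicate 2 (950.3 FPKM, others 725 to 751), Isg15 in 0 hr replicate 4 (2.21 FPKM, others 9.86 to 11.7), Rel in 0 hr replicate 1 (69.9 FPKM, others 46.8 to 49.3) and Sdf2l1 in 0 hr replicate 1 (211 FPKM, others 277 to 287). Replicate 2 at 24 hr, which was also low in chaperones, appeared for 4 genes.

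The 6 to 24 hr change differed between WM repopulating cells and control microglia by the interaction test for Lig1 (-2.25), Clec4n (-2.23), Gins2 (-2.07), Mcm6 (-1.87), Rnu12 (-2.65), Rnu2-10 (-2.94) and Ier2 (1.18), in log2 units.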

How the results depend on the processing

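No named gene with a called change turned direction under any alternative run, while uncalled changes near 0, such as those of Cd244, Il1b, Ccl12 and Ecm1, crossed it when 1 library was left out. Depth was 6207111 to 10379752 reads in the compared libraries, which limits genes near 1 FPKM. Requiring a change above 1 on the log2 scale left 264 genes higher and 399 lower, 330 that fell back, 181 recovered, 22 rose late, 22 fell late, 3 rose on, 3 fell on, 253 stayed higher and 214 stayed lower, and 3 homeostatic, 4 heat shock, 2 endoplasmic reticulum, 2 lysosomal, 2 S phase and 2 cytokine genes higher, by its own construction. With only the 12 WM repopulating libraries fitted, 147 genes rose late, 33 rose on, 20 fell on, and 17 homeostatic and 8 cytokine genes were higher. With only the 8 compared libraries, 16 homeostatic, 7 endoplasmic reticulum and 9 cytokine genes were higher. A filter of mean FPKM of at least 5 left 415 genes that stayed lower. The difference from control was called positive for 0 genes at a pseudocount of 0.1, without a filter and after median-ratio rescaling, for 1 at a pseudocount of 0.5 and without the variance trend, and negative for 9 at a pseudocount of 0.1 and 11 with the filter of mean 5. Alternatives added after the data were seen gave 4 positive without both control libraries apart, and, without both WM repopulating libraries apart, 0 positive and 1 negative, 18 endoplasmic reticulum genes higher and 5 cytokines lower. Where no construction is named, the cause was not tested.

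Leaving out 1 library at a time gave 719 to 1010 genes higher and 684 to 938 lower, 564 to 756 that fell back, 548 to 744 recovered, 62 to 90 rose late, 35 to 64 fell late, 7 to 15 rose on, 5 to 10 fell on, 619 to 783 stayed higher and 502 to 642 stayed lower. Differences from control were 0 to 6 positive and 10 to 24 negative. Among lists 12 to 20 interferon-stimulated, 12 to 13 inflammatory, 8 to 9 monocyte and 5 to 8 cytokine genes were lower, and 4 to 12 homeostatic, 5 to 11 heat shock, 5 to 18 endoplasmic reticulum, 12 to 16 lysosomal, 3 to 7 S phase and 3 to 5 cytokine genes higher.

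With the replicate block 1903 genes were called against 1990, of which 1773 were shared. The replicate numbers did not pair the samples: deviations of same-numbered 6 and 24 hr libraries correlated at 0.04, 0.07, -0.13 and 0.27, and not every library matched its own number best. Of the calls 52.2% were higher, and 51.3% after quantile normalization.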

Other observations

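Of 10 tested transcripts of B cells and plasma cells, a list added after the values were seen, 5 were lower and 1 higher at 6 than at 0 hr, and 4 were lower and none higher at 24 than at 0 hr. Ighm, the heavy chain of immunoglobulin M, was at 287, 335, 289.5 and 338 FPKM at 0 hr, 30.9, 30.5, 22.4 and 20.6 at 6 hr and 127, 47.9, 89.8 and 116 at 24 hr, in the order of the replicates. Its 24 hr libraries lay above its 6 hr libraries and below its 0 hr libraries, and the change from 6 to 24 hr was 1.76 ± 0.27, adjusted p = 7.54e-05 (limma). Of the list 2 genes were higher and none lower at 24 than at 6 hr, and none was lower at an unadjusted p under 0.05. The listed genes, with Ighm the largest part at 0 hr, summed to 431 to 515 FPKM at 0 hr, 30.6 to 122 at 6 hr and 69.1 to 185 at 24 hr, with control microglia at 663 to 951, 50.2 to 248 and 169 to 296 FPKM. Immunoglobulin segments resemble each other, so counts may be split between them.

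S100a8, an abundant neutrophil protein, was at 5561, 549, 427 and 282 FPKM at 6 hr and 2247, 4179, 2709 and 2061 at 24 hr, with 6 hr replicate 1 above every other 6 hr library and every 24 hr library (1.79 ± 0.68, adjusted p = 0.0766). Without that library the change was 2.73, adjusted p = 0.00153 (limma).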
